A study of Mus musculus with 9 samples.

Results

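The 10 genes described here encode enzymes that make, remodel or break down ceramide, the lipid at the centre of sphingolipid metabolism. They are Sptlc1, Sptlc2, Cers2, Cers4, Cers5, Cers6, Degs1, Ugcg, Asah1 and Sphk1. They were chosen by symbol as a pathway and not by a rule on their values, though with earlier results of these data known. Each symbol matched 1 Ensembl gene ID, giving 10 of the 53700 gene IDs in the deposited count table. All 10 had enough reads to be among the 18415 genes tested.

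RNA was sequenced from C2C12 cells, an established mouse myoblast line, in 9 libraries of 3 groups. All wells were first held for 12 h in the low-serum medium OPTI-MEM. Val+PA wells were then given the branched-chain amino acid valine at 0.45 mM for 24 h together with the saturated fatty acid palmitic acid, at 75 µM, over 12 h. Valine wells were given 0.45 mM valine for 36 h, and Control wells were collected directly after the 12 h starvation. The 3 sequenced wells of a group were a random pick out of the 6 on its single plate. Replicate error is therefore the variation between wells sharing a plate, and p-values measure no more than that. Treatment, plate and the longer time in culture cannot be told apart in either comparison with Control. In the comparison of Val+PA with Valine, palmitic acid, plate, the shorter valine treatment and any difference in time in culture cannot be told apart.

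Ceramide is built on the endoplasmic reticulum. Serine palmitoyltransferase condenses serine with palmitoyl-CoA, ceramide synthases add a second fatty acid, and a desaturase completes ceramide, which can then be glucosylated, turned into sphingomyelin, or cleaved to sphingosine and phosphorylated. In muscle the pathway is studied because saturated fatty acids such as palmitate feed it and because ceramide is linked to weaker insulin signalling.

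The libraries held 26750226 to 35976589 counted reads, so 1 read corresponded to 0.0271 to 0.0403 CPM (reads scaled to a common library total). CPM values were also scaled by TMM factors, which correct for differences in library composition, and values of a group are always given in the order of replicates 1, 2 and 3. A gene is called where edgeR's quasi-likelihood test, fitted on all 9 libraries, gave a Benjamini-Hochberg adjusted p below 0.05. For a single gene, an exact permutation test of 3 wells against 3 cannot go below 0.1 (two-sided). On the second principal component of all tested genes, Val+PA 2 lay lowest at -46.3, followed by Control 3 at -21.9 and Val+PA 3 at -9. The remaining wells lay at 7.73 to 17.6, so Val+PA 3 fell in between. Results are also given without Val+PA 2 and Control 3, the lowest wells. Summed CPM of 5 myoblast markers was 8810 to 12000 in Val+PA, 8950 to 9060 in Valine and 8190 to 8750 in Control, almost all of it Vim and Des. Vim alone had 6810 to 8670, 6760 to 6840 and 6620 to 7280 CPM in these groups. Myf5 had 42.4 to 48.0 CPM in Val+PA, 64.9 to 71.5 CPM in Valine and 31.2 to 39.7 CPM in Control, and Myod1 reached 12.3 CPM. Of 5 adipocyte markers, Adipoq and Lep were at 0 in all libraries, and the sum was 0 to 0.163 CPM in Val+PA, 0.0581 to 0.245 CPM in Valine and 0 to 0.121 CPM in Control, with Plin1 reaching 0.217 CPM. Summed immune markers were 5.64 to 6.98 CPM in Val+PA, 4.65 to 5.84 CPM in Valine and 0.886 to 2.52 CPM in Control, almost all of it Cd68, with Ptprc at or below 0.309 CPM. Summed neural markers were 115 to 135 CPM in Val+PA, 146 to 148 CPM in Valine and 257 to 329 CPM in Control, almost all of it Tubb3. Summed endothelial markers were 1.68 to 2.82 CPM in Val+PA, 1.3 to 1.91 CPM in Valine and 0.242 to 0.608 CPM in Control, mostly Kdr. The part of these markers in the results was not tested. In bulk RNA, fewer cells of a type and less RNA per cell cannot be told apart.

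In the comparison of Valine with Control, Ugcg, the glucosylceramide synthase gene, was higher and Sphk1, Degs1 and Cers5 were lower, so that 4 of 10 genes were called. Across all tested genes 41.9% were called, 20.8% higher and 21.1% lower, so a share of 4 in 10 is near the background. The wells of both groups did not overlap for 1 gene that was higher and 5 that were lower in Valine, where 29.7% and 29.2% of all genes did so. Between Val+PA and Valine, 0 genes were called, 0.0% of those tested, and the largest differences among the 10 were in Sphk1, which had higher values, and Ugcg, which had lower values in Val+PA. The wells of these 2 genes did not overlap, against 12.6% of all genes apart and higher and 12.0% apart and lower. In the comparison of Val+PA with Control, Degs1 and Cers5 were lower and no member was higher, against 20.4% higher, 18.8% lower and 39.2% called in either direction among all genes. Wells were apart and lower in Val+PA for 3 members and apart and higher for 0, against 22.1% and 23.5% of all genes, or 45.5% in either direction. Without Control 3 and Val+PA 2, 1 member was higher and 5 lower in Valine against Control, where 27.0% and 27.2% of all genes were called, 54.1% in all. Between Val+PA and Valine 1 was then higher in Val+PA and 1 lower, against 1.66% and 1.55% of all genes. In Val+PA against Control 2 were then higher and 3 lower, against 25.2% and 24.6% of all genes, 49.8% in all. The median log2 fold change of the 10 genes was -0.10 for Valine against Control, -0.0044 for Val+PA against Valine and -0.09 for Val+PA against Control. The medians of all tested genes were -0.0049, 0.0044 and -0.0018 in the same comparisons.

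**Figure D1:**
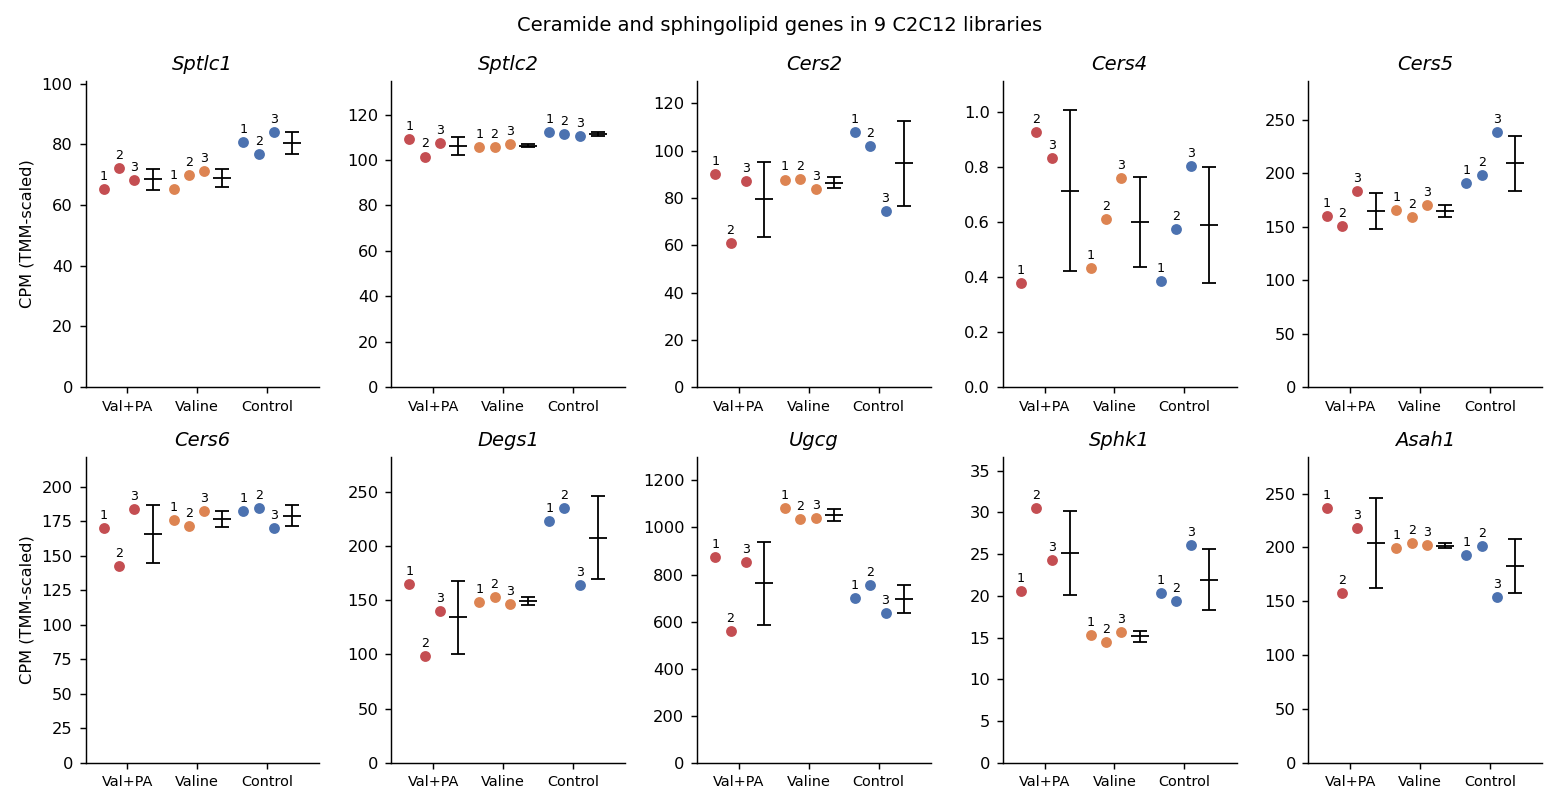
CPM of each of the 10 genes (vertical axis, linear, from 0) in Val+PA, Valine and Control wells, with replicate numbers above the points and the mean ± SD of 3 wells beside them. Ugcg was highest in the 3 Valine wells, at 1038 to 1084 CPM, and Sphk1 was lowest there, at 14.4 to 15.7 CPM.

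The genes differed widely in level. The authors' deposited normalized signal, in which a gene's reads are divided by its summed exon length (proportional within 1% for 98.4% of 10539 genes), allows genes to be ranked within a library, and on this scale Ugcg stood highest in each group, with a mean signal of 306 ± 71 in Val+PA, 424 ± 12 in Valine and 274 ± 32 in Control (SD, n = 3 each). Asah1, Degs1 and Cers5 followed with group means of signal between 97.2 and 164. In Valine, Asah1 at 125 ± 1.5 and Degs1 at 121 ± 3.3 overlapped and both stood above Cers5 at 97.6 ± 2.9, whereas in Val+PA and in Control the neighbours among the 3 genes overlapped. Cers2, Cers6 and Sptlc1 formed a middle tier with means of 39.0 to 52.9, and Sptlc2 lay below them at 27.3 ± 1.1 in Val+PA, 27.5 ± 0.033 in Valine and 28.1 ± 1.0 in Control. Sphk1 had a signal of 11.0 ± 2.2, 6.64 ± 0.26 and 9.36 ± 1.3 in Val+PA, Valine and Control. Cers4 was near the detection limit, with a signal of 0.122 ± 0.051, 0.103 ± 0.027 and 0.0977 ± 0.033 in the same groups.

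Serine palmitoyltransferase catalyses the committed step, and Sptlc1 and Sptlc2 encode its paired large subunits. Sptlc1 (chromosome 13, 53332748 to 53377397, minus strand, GRCm38) had 65.2, 72.1 and 68.3 CPM in Val+PA, 65.5, 69.9 and 71.2 CPM in Valine, and 80.7, 76.9 and 84.1 CPM in Control. All 6 valine-treated wells lay below all 3 Control wells, while Val+PA and Valine overlapped. The log2 fold change was -0.23 in Valine against Control (SE 0.09, edgeR adjusted p = 0.069) and -0.23 in Val+PA against Control (SE 0.09, edgeR adjusted p = 0.0653), and neither was called. DESeq2 called both, with adjusted p = 0.0473 and 0.0336. Without Control 3 and Val+PA 2, Sptlc1 was called lower in both, at -0.19 (edgeR adjusted p = 0.0226) in Valine and -0.24 (edgeR adjusted p = 0.0121) in Val+PA. Leaving out Val+PA 2 alone also brought calls, with edgeR adjusted p = 0.0239 for Valine and 0.0205 for Val+PA, each against Control. Leaving out any other single library brought no call, with edgeR adjusted p of 0.074 to 0.253 for Valine and 0.0929 to 0.165 for Val+PA. With library size alone in place of TMM neither was called (edgeR adjusted p = 0.202 for Valine and 0.111 for Val+PA).

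Sptlc2 (chromosome 12, 87305058 to 87388355, minus strand) had 109, 102 and 108 CPM in Val+PA, 106, 106 and 107 CPM in Valine, and 112, 111 and 111 CPM in Control. Its treated wells again lay just below the Control wells, but by less, with a log2 fold change of -0.07 both in Valine against Control (edgeR adjusted p = 0.554) and in Val+PA against Control (edgeR adjusted p = 0.556). With library size alone in place of TMM the value in Valine was 0.0049. In the deposited signal the groups overlapped, at 26.1 to 28.1 in Val+PA, 27.4 to 27.5 in Valine and 27.0 to 28.9 in Control. The ratio of Sptlc1 to Sptlc2 signal was 1.36 to 1.62 in Val+PA, 1.41 to 1.52 in Valine and 1.58 to 1.74 in Control, so that Valine lay below Control and Val+PA overlapped it. Between Val+PA and Valine the log2 fold change was -0.01 for Sptlc1 and within 0.01 of 0 for Sptlc2.

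Ceramide synthases differ in the fatty acid they attach: Cers2 prefers very long chains, Cers5 and Cers6 prefer palmitoyl chains, and Cers4 prefers long chains between them. Cers5 (chromosome 15, 99734881 to 99772885, minus strand) had 160, 151 and 183 CPM in Val+PA, 166, 159 and 170 CPM in Valine, and 191, 198 and 239 CPM in Control. Every Control well was above every treated well, and Control 3 was the highest of the 9. Cers5 fell in Valine against Control, with a log2 fold change of -0.34 (SE 0.11, edgeR adjusted p = 0.0289), and in Val+PA against Control, also -0.34 (SE 0.11, edgeR adjusted p = 0.0294). The call in Valine was lost with library size alone (edgeR adjusted p = 0.0678) and on leaving out Control 3 (edgeR adjusted p = 0.0898), Valine 1 (0.0909), Valine 2 (0.107) or Valine 3 (0.0687). The call in Val+PA was lost without Control 3 (edgeR adjusted p = 0.0843), Val+PA 1 (0.0719), Val+PA 2 (0.0559), Valine 1 (0.0539), Valine 2 (0.0516) or Valine 3 (0.0514), and with the Val+PA and Control groups alone in the fit (0.0872). With library quality weights in limma-voom the log2 fold change in Val+PA was -0.17 (adjusted p = 0.0839). Cers5 was still called without Control 3 and Val+PA 2 in Valine at -0.23 (SE 0.07, edgeR adjusted p = 0.00735), and not in Val+PA at -0.18 (edgeR adjusted p = 0.0551).

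Cers2 (chromosome 3, 95314791 to 95323599, plus strand) had 90.2, 61.0 and 87.0 CPM in Val+PA, 87.8, 87.9 and 83.9 CPM in Valine, and 108, 102 and 74.3 CPM in Control. Val+PA 2 and Control 3 were the lowest wells of the 9, and the groups overlapped in each comparison. With all libraries no comparison called Cers2: its log2 fold change was -0.13 in Valine against Control (SE 0.16, edgeR adjusted p = 0.548) and -0.26 in Val+PA against Control (edgeR adjusted p = 0.24). Without these libraries it was called lower in both, at -0.27 (SE 0.06, edgeR adjusted p = 0.00128) in Valine and -0.24 (SE 0.07, edgeR adjusted p = 0.00708) in Val+PA. Leaving out Control 3 alone gave a call for Val+PA against Control, with edgeR adjusted p = 0.0486. Cers2, with 25733 reads in all, overlaps Setdb1, with 17400 reads, on the opposite strand. The libraries were strand-specific, but the strand setting of the counting is not given in the sources used here. How reads in the shared stretch were counted is therefore not known.

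Cers6 (chromosome 2, 68861441 to 69114282, plus strand) had 170, 143 and 184 CPM in Val+PA, 176, 171 and 183 CPM in Valine, and 183, 185 and 170 CPM in Control. The groups overlapped in each comparison and none was called, with log2 fold changes of -0.02 in Valine against Control (0.051 with library size alone) and -0.11 in Val+PA against Control. Cers4 (chromosome 8, 4493026 to 4531680, plus strand) was counted 12 to 29 times per library, 184 reads in all. It had 0.38, 0.929 and 0.835 CPM in Val+PA, 0.435, 0.611 and 0.762 CPM in Valine, and 0.385, 0.577 and 0.806 CPM in Control, and a difference between groups was not detectable at this depth.

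Expressed as shares of the summed per-length signal of the 4 ceramide synthases, Cers5 took 53.7% ± 2.8 in Val+PA, 51.7% ± 0.79 in Valine and 56.1% ± 6.0 in Control (SD, n = 3 each). Cers2 took 24.7% ± 2.8, 26.1% ± 1.1 and 24.6% ± 5.0 in the same groups, with the lowest share, 18.9%, in Control 3, where Cers5 had its highest, 63.1%. The groups did not overlap for the share of Cers6: 21.3% to 21.6% in Val+PA, 21.9% to 22.5% in Valine and 18.0% to 19.9% in Control. A share also moves with the other genes of the sum. Cers6 CPM itself overlapped, with log2 fold changes of -0.02 in Valine and -0.11 in Val+PA against Control, neither called. Cers5, the largest part of the sum, had -0.34 in both. Cers4 stayed at or below 0.101% in every library.

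**Figure D2:**
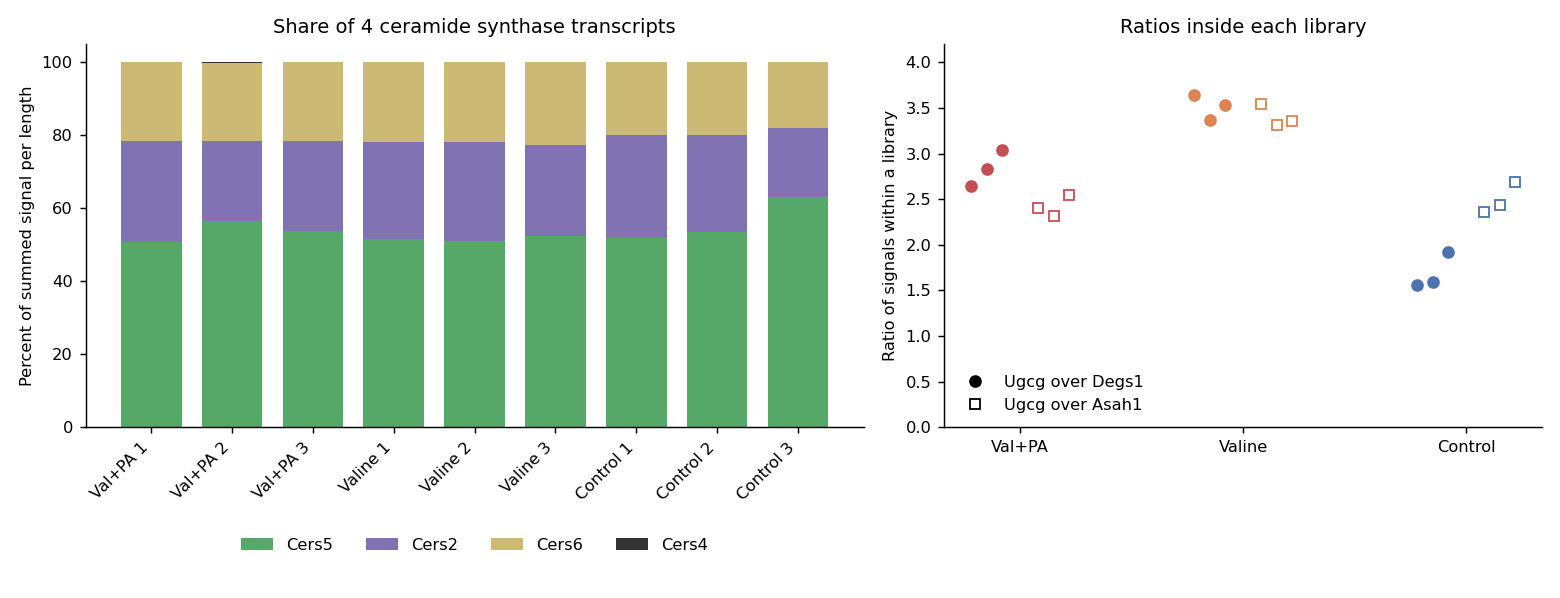
Left, percent of the summed per-length signal of 4 ceramide synthase transcripts in each library, stacked by gene. Right, ratios of signals within each library (vertical axis, linear, from 0) for Ugcg over Degs1 (filled circles) and Ugcg over Asah1 (open squares), 1 point per well. The Cers6 share was 21.3% or more in all treated wells and 19.9% or less in Control wells, and Ugcg over Degs1 was 2.64 or more in all treated wells and 1.56 to 1.93 in Control wells. Cers6 CPM itself overlapped between the groups, and Ugcg and Degs1 were each called in Valine against Control.

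Degs1 encodes the desaturase that converts dihydroceramide to ceramide, the last step of de novo synthesis. Degs1 (chromosome 1, 182275772 to 182282804, minus strand) had 165, 98.3 and 140 CPM in Val+PA, 148, 153 and 147 CPM in Valine, and 224, 235 and 164 CPM in Control. Valine wells were below all Control wells, whereas Val+PA 1 lay just above Control 3. Degs1 fell in Valine, with a log2 fold change of -0.48 against Control (SE 0.18, edgeR adjusted p = 0.0465), and in Val+PA, with -0.63 against Control (SE 0.18, edgeR adjusted p = 0.0137). The call in Valine was lost with library size alone (edgeR adjusted p = 0.111), and without Control 1 (edgeR adjusted p = 0.125), Control 2 (0.148), Valine 1 (0.122), Valine 2 (0.0997), Valine 3 (0.122) or Val+PA 3 (0.0639), and the call in Val+PA without Control 2 (0.0554). Leaving out Control 3 and Val+PA 2 together left a log2 fold change of -0.62 in Valine (SE 0.07, edgeR adjusted p = 1.26e-06) and -0.59 in Val+PA (SE 0.08, edgeR adjusted p = 7.97e-06). Val+PA and Valine overlapped, at a log2 fold change of -0.15 (edgeR adjusted p = 0.692).

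Degs1 and Cers5 were the members called lower against Control in both treated groups, and their promoters are shown for that reason, as RefSeq gives them on GRCm38.p6 from 250 bases before to 50 bases after the start, 5′ to 3′ on the gene's own minus strand. The Degs1 promoter is chr1:182282146-182282445 and the Cers5 promoter is chr15:99772466-99772765. Capitals mark the E-box CACGTG in Degs1 and the Sp1 box GGGCGG in Cers5.
Degs1: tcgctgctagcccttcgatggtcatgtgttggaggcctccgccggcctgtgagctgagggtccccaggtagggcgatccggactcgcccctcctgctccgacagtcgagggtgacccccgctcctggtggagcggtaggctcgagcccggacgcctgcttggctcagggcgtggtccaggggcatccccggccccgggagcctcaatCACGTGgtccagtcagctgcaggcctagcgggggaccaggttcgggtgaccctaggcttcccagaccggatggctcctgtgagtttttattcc
Cers5: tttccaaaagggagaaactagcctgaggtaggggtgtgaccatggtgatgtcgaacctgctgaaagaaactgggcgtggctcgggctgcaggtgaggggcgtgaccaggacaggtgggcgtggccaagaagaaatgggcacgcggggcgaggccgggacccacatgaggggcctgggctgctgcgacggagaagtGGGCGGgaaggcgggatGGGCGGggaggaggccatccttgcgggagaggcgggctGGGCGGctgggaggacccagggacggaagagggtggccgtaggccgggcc
The Degs1 window holds 1 E-box, a motif present in 7.15% of all 32851 mouse promoters of this length in the table, and no Sp1 box. The Cers5 window holds 3 Sp1 boxes, a motif present in 35.7% of all promoters, and no E-box. Both strands were searched, and neither window holds CCAAT (37.4% of promoters), TGANTCA (7.81%), TGACGTCA (1.79%), TTGCATCA (0.895%), TCACNCCAC (1.24%) or TATAAA (13.6%). None of these motifs shares letters with another in these windows. GC content was 67.3% for Degs1 and 67.7% for Cers5, against a median of 52.7% over all promoters. The start RefSeq gives lies inside the gene as GENCODE annotates it, for both genes. The last 30 bases of the window are held by 1 GENCODE transcript for Cers5 and by 0 for Degs1, so the Degs1 window is a promoter by the RefSeq start alone. These matches describe letters and say nothing of binding.

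Ugcg encodes glucosylceramide synthase, which moves ceramide into glycosphingolipids. Ugcg (chromosome 4, 59189257 to 59222833, plus strand) had 876, 560.3 and 853 CPM in Val+PA, 1084, 1038 and 1041 CPM in Valine, and 701, 756 and 637 CPM in Control. The 3 Valine wells stood above all others, and Val+PA wells fell on both sides of the Control wells, with Val+PA 2 the lowest of the 9. Ugcg rose 1.51-fold in Valine against Control, a log2 fold change of 0.60 (SE 0.15, edgeR adjusted p = 0.00709), and this call held on leaving out each library in turn. In Val+PA against Valine the log2 fold change was -0.47 (SE 0.15, unadjusted p = 0.00875, edgeR adjusted p = 0.314), with no overlap between the groups. Across all tested genes 24.6% did not overlap in that comparison and 13.2%, or 2428 genes, had an unadjusted p below 0.05. Against Control, Ugcg in Val+PA was not called, at 0.13 (edgeR adjusted p = 0.527).

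The place of Ugcg in Val+PA depended on the libraries kept. Without Control 3 and Val+PA 2, Ugcg was higher in Valine at 0.54 (SE 0.06, edgeR adjusted p = 5.31e-07) and higher in Val+PA at 0.25 (SE 0.06, edgeR adjusted p = 0.00259), each against Control. In the same fit it was lower in Val+PA than in Valine at -0.29 (SE 0.06, edgeR adjusted p = 0.0109), where 3.21% of the 18799 genes tested were called. Without Val+PA 2 alone, the rise in Val+PA against Control had edgeR adjusted p = 0.0116. That rise was called, but the step between Val+PA and Valine was not (log2 fold change -0.29, edgeR adjusted p = 0.366). With both Control 3 and Val+PA 2 left out, Ugcg was ordered Valine, Val+PA, Control, from high to low, with each step called. That alternative was chosen with earlier results of these data known.

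Asah1 encodes acid ceramidase, which cleaves ceramide to sphingosine in the lysosome. Asah1 (chromosome 8, 41340197 to 41374773, minus strand) had 237, 157 and 218 CPM in Val+PA, 199, 204 and 202 CPM in Valine, and 193, 201 and 154 CPM in Control. The groups overlapped, with Val+PA 2 and Control 3 the lowest wells, and no comparison was called. The log2 fold change was 0.14 in Valine against Control (edgeR adjusted p = 0.477) and 0.16 in Val+PA against Control (edgeR adjusted p = 0.426). Without Val+PA 2, Asah1 was called higher in Val+PA than in Control (edgeR adjusted p = 0.0364), and without both libraries the log2 fold change was 0.21 (SE 0.07, edgeR adjusted p = 0.0138).

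Sphk1 encodes sphingosine kinase, which makes the signalling lipid sphingosine phosphate. Sphk1 (chromosome 11, 116530925 to 116536674, plus strand) had 20.6, 30.5 and 24.3 CPM in Val+PA, 15.3, 14.4 and 15.7 CPM in Valine, and 20.3, 19.4 and 26.1 CPM in Control. All Valine wells lay below all wells of the other groups, and Val+PA overlapped Control. Sphk1 fell in Valine against Control, with a log2 fold change of -0.53 (SE 0.16, edgeR adjusted p = 0.0185). The call was lost without Control 3 (edgeR adjusted p = 0.0669), Valine 1 (0.0577) or Valine 2 (0.0708). In Val+PA the level was 0.20 above Control on the log2 scale (edgeR adjusted p = 0.348).

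Sphk1 had, in Val+PA against Valine, the largest difference of the 10 genes, a log2 fold change of 0.73 (SE 0.16, unadjusted p = 0.000625, edgeR adjusted p = 0.192), which did not pass. Without Control 3 and Val+PA 2 it was called, at 0.57 (SE 0.09, edgeR adjusted p = 0.00466), and the fall in Valine against Control was then -0.39 (SE 0.10, edgeR adjusted p = 0.00285). DESeq2 called Sphk1 higher in Val+PA than in Valine with all 9 libraries (adjusted p = 0.0086). The number of all genes called in this comparison depended on the tool: 0 by edgeR, 0 by limma-voom, 212 by DESeq2 and 891 by limma-voom with library quality weights. Leaving out any single library called none of the 10 genes in this comparison.

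**Figure D3:**
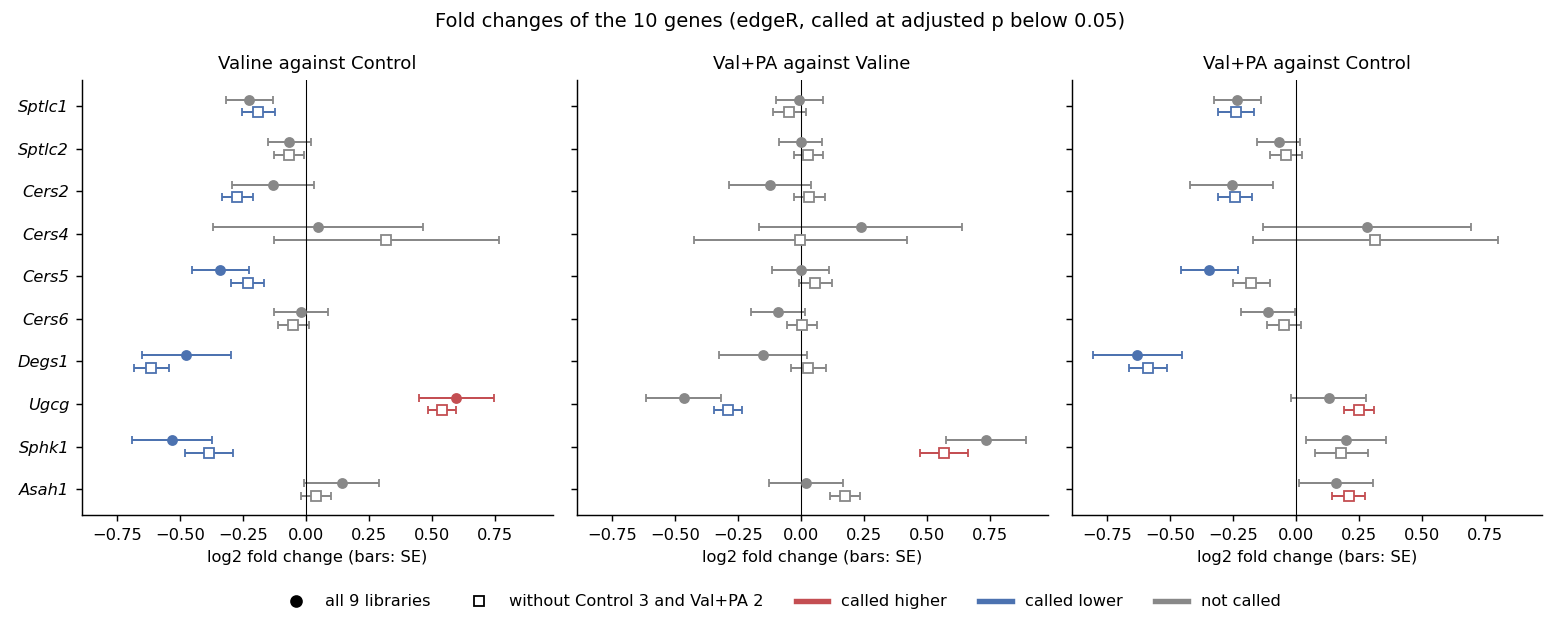
Log2 fold changes (horizontal axis) with SE bars of the 10 genes in 3 comparisons, with all 9 libraries and without Control 3 and Val+PA 2. Colours mark genes called higher, called lower or not called at an edgeR adjusted p below 0.05. Ugcg and Sphk1 lie on opposite sides of 0 in Valine against Control, at 0.60 and -0.53, and in Val+PA against Valine, at -0.47 and 0.73.

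Ratios inside a library do not depend on library scaling. The signal of Ugcg over Degs1 was 2.64 to 3.03 in Val+PA, 3.37 to 3.64 in Valine and 1.56 to 1.93 in Control, so that the 3 groups did not overlap. The signal of Ugcg over Asah1 was 2.32 to 2.54 in Val+PA, 3.31 to 3.54 in Valine and 2.36 to 2.68 in Control, so that Valine stood apart and Val+PA overlapped Control. Sphk1 over Ugcg averaged 0.0388 ± 0.018 in Val+PA, 0.0157 ± 0.00068 in Valine and 0.0348 ± 0.0088 in Control (SD, n = 3 each). Ugcg was called higher and Degs1 and Sphk1 lower in Valine against Control, so ratios between these genes partly restate those calls. The share of other gene pairs whose ratios do not overlap was not computed.

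Control 3 and Val+PA 2 were set apart because both lay lowest on the second principal component of all tested genes. Their deviations from the group means over all tested genes correlated at r = 0.338. Some agreement in direction was thus built into the choice, and the share of all genes that agree was not computed. Compared with the mean log2 CPM of the other wells of their group, Control 3 and Val+PA 2 deviated in the same direction for 9 of 10 genes, lower for 6 and higher for 3. On the log2 scale the deviation of Degs1 was -0.63 in Val+PA 2 and -0.48 in Control 3, that of Cers2 was -0.54 in Val+PA 2 and -0.50 in Control 3, and that of Asah1 was -0.53 in Val+PA 2 and -0.35 in Control 3. Sphk1 was higher, by 0.45 in Val+PA 2 and 0.40 in Control 3. Ugcg deviated by -0.63 in Val+PA 2 and -0.19 in Control 3, and Cers5 alone went opposite ways, -0.18 in Val+PA 2 and 0.29 in Control 3. The part that this shared deviation has in the group differences was not tested beyond the values without these libraries.

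**Figure D4:**
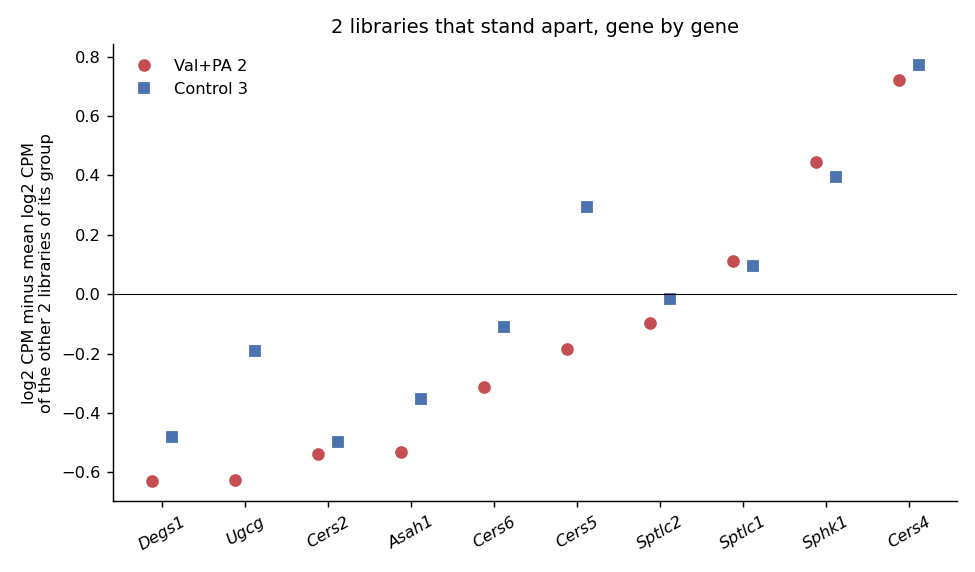
Deviation of Val+PA 2 (circles) and of Control 3 (squares) from the mean log2 CPM of the other 2 wells of their group (vertical axis) for each of the 10 genes. The 2 points of a gene lie on the same side of 0 for 9 genes and on opposite sides for Cers5.

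Of 66 further genes of sphingolipid metabolism listed by role, 59 were tested. In Valine against Control 15 were higher and 15 lower, against 20.8% and 21.1% of all tested genes. Between Val+PA and Valine 0 were called, against 0.0% of all genes. Against Control, 16 in Val+PA were higher and 11 lower, against 20.4% and 18.8% of all genes. Their median log2 fold changes were 0.03, 0.01 and 0.08 in these comparisons. With Control 3 and Val+PA 2 left out, 20 were higher and 19 lower in Valine against Control, against 27.0% and 27.2% of all genes. Val+PA against Valine then had 6 higher and 0 lower, against 1.66% and 1.55%, and Val+PA against Control had 22 higher and 17 lower, against 25.2% and 24.6%.

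Among the 3 brakes on serine palmitoyltransferase, 1 was higher and 2 were lower in both treated groups against Control. Across all genes 20.8% were higher and 21.1% lower in Valine, and 20.4% higher and 18.8% lower in Val+PA, each against Control. Ormdl3 averaged 78.8 ± 9.9 CPM in Val+PA, 61.2 ± 3.6 CPM in Valine and 46.3 ± 5.4 CPM in Control (SD, n = 3 each), with log2 fold changes of 0.77 in Val+PA (edgeR adjusted p = 0.000408) and 0.40 in Valine (edgeR adjusted p = 0.0201). Ormdl2 averaged 8.52 ± 1.9 CPM in Val+PA, 9.16 ± 1.3 CPM in Valine and 16.3 ± 5.8 CPM in Control, with log2 fold changes of -0.94 in Val+PA (edgeR adjusted p = 0.0114) and -0.83 in Valine (edgeR adjusted p = 0.0195). The Ormdl3 call in Valine was lost without Control 1 (0.056), Control 2 (0.0906), Valine 2 (0.0568) or Valine 3 (0.0799). The Ormdl2 call in Valine was lost without Control 1 (0.088), Control 2 (0.0603), Valine 1 (0.0526) or Valine 3 (0.0822), and its call in Val+PA without Control 1 (0.0551), all as edgeR adjusted p.

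Of 6 tested other subunits and isoforms of de novo synthesis, 2 were higher and 0 lower in Valine against Control (20.8% and 21.1% of all genes). In Val+PA against Control, 2 were higher and 1 lower (20.4% and 18.8% of all genes). Fa2h, which hydroxylates the fatty acid of ceramide, was low throughout, at 0.641 ± 0.07 CPM in Val+PA, 0.374 ± 0.19 CPM in Valine and 0.0669 ± 0.083 CPM in Control. It was called higher in Val+PA (edgeR adjusted p = 0.00306) and in Valine (edgeR adjusted p = 0.0195), the second of which was lost without Control 2 (0.0607), Control 3 (0.055) or Valine 2 (0.0875). Degs2, an isoform of the desaturase, was at 0.365 ± 0.11 CPM in Val+PA, 0.421 ± 0.17 CPM in Valine and 0.893 ± 0.33 CPM in Control. It was called lower in Val+PA against Control (edgeR adjusted p = 0.029), a call lost without Control 2 (0.0554), Control 3 (0.102), Val+PA 1 (0.0964) or Val+PA 3 (0.0571), and at 0.0679 without Control 3 and Val+PA 2.

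Of 10 genes of ceramide transfer and head-group addition, 3 were higher and 4 lower in Valine against Control (20.8% and 21.1% of all genes). In Val+PA against Control, 2 were higher and 2 lower (20.4% and 18.8% of all genes). B4galt5 and B4galt6 encode lactosylceramide synthases, which act on the product of Ugcg. B4galt5 averaged 237 ± 45 CPM in Val+PA, 186 ± 10.2 CPM in Valine and 291 ± 41 CPM in Control, and was called lower in Valine (log2 fold change -0.65, edgeR adjusted p = 0.0032) and not called in Val+PA (-0.29, edgeR adjusted p = 0.122), each against Control. B4galt6 averaged 49.9 ± 3.0 CPM in Val+PA, 52.6 ± 4.0 CPM in Valine and 76.1 ± 12.5 CPM in Control, and was called lower in Val+PA (log2 fold change -0.61, edgeR adjusted p = 0.00218) and in Valine (-0.53, edgeR adjusted p = 0.00479). St3gal5, which adds sialic acid to lactosylceramide, averaged 95.6 ± 4.6 CPM in Val+PA, 96.5 ± 3.8 CPM in Valine and 70.4 ± 2.8 CPM in Control, and was called higher in both (edgeR adjusted p = 0.00229 in Val+PA and 0.00178 in Valine). Ugt8a, the galactosylceramide synthase gene, was below 1 CPM on average in each group and its call in Valine (log2 fold change 1.80, edgeR adjusted p = 0.029) was lost without Control 2 (0.0549), Control 3 (0.0794), Valine 1 (0.0713), Valine 2 (0.0526) or Valine 3 (0.0723). Ugt8a was not called in Val+PA against Control (1.56, edgeR adjusted p = 0.0587).

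**Figure D5:**
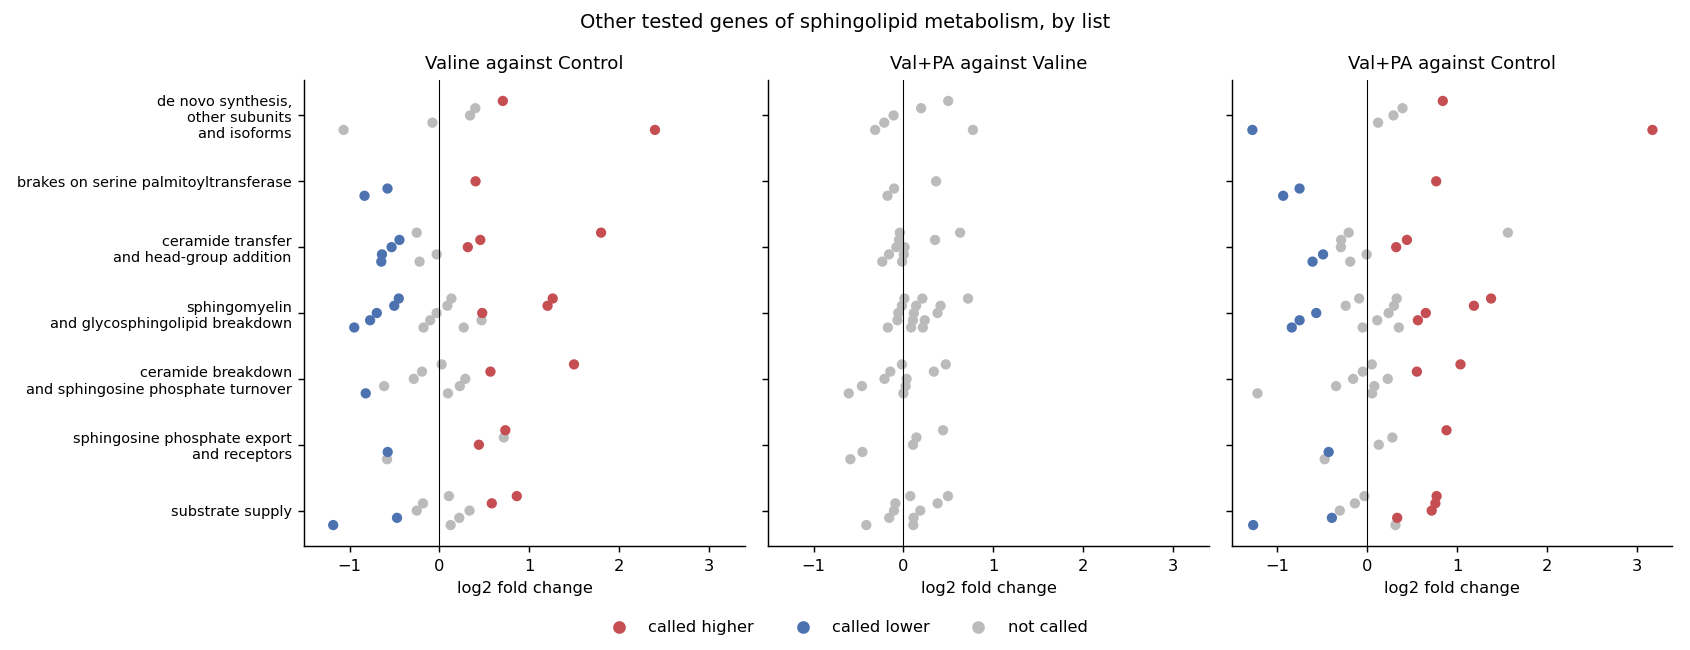
Log2 fold changes (horizontal axis) of the 59 other tested genes of sphingolipid metabolism, 1 point per gene, grouped by the 7 lists, in 3 comparisons. Points are coloured where edgeR called the gene higher or lower; 15 were higher and 15 lower in Valine against Control, and none was called in Val+PA against Valine.

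Of 15 tested genes of sphingomyelin and glycosphingolipid breakdown, 3 were higher and 5 lower in Valine against Control (20.8% and 21.1% of all genes). In Val+PA against Control, 4 were higher and 3 lower (20.4% and 18.8% of all genes). Glb1, the lysosomal galactosidase that degrades gangliosides, averaged 72.6 ± 1.2 CPM in Val+PA, 67.0 ± 3.7 CPM in Valine and 27.9 ± 1.9 CPM in Control. It was called higher in both, with a log2 fold change of 1.38 in Val+PA (SE 0.10, edgeR adjusted p = 9.16e-07) and 1.26 in Valine (SE 0.10, edgeR adjusted p = 1.69e-06). Smpd4, a neutral sphingomyelinase gene, averaged 21.5 ± 3.9 CPM in Val+PA, 20.0 ± 1.1 CPM in Valine and 38.5 ± 3.3 CPM in Control, and was called lower in both (log2 fold changes -0.84 and -0.95). Neu1, a lysosomal sialidase gene, averaged 51.2 ± 10.1 CPM in Val+PA and 31.0 ± 1.7 CPM in Valine and had the smallest p of this list in that comparison, at a log2 fold change of 0.72 (edgeR adjusted p = 0.192).

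Of 10 tested genes of ceramide breakdown and sphingosine phosphate turnover, 2 were higher and 1 lower in Valine against Control (20.8% and 21.1% of all genes). In Val+PA against Control, 2 were higher and 0 lower (20.4% and 18.8% of all genes). Asah2, the neutral ceramidase gene, averaged 36.0 ± 7.3 CPM in Val+PA, 49.5 ± 2.7 CPM in Valine and 17.5 ± 3.2 CPM in Control, and was called higher in both, with a 2.05-fold rise in Val+PA (edgeR adjusted p = 0.000419) and a 2.83-fold rise in Valine (edgeR adjusted p = 2.74e-05). Plpp2, a lipid phosphate phosphatase gene, averaged 69.9 ± 14 CPM in Val+PA, 50.4 ± 0.52 CPM in Valine and 89.0 ± 28 CPM in Control, called lower in Valine (log2 fold change -0.82, edgeR adjusted p = 0.00548) and not called in Val+PA (-0.35, edgeR adjusted p = 0.182), each against Control.

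Of 5 tested genes of sphingosine phosphate export and its receptors, 2 were higher and 1 lower in Valine against Control (20.8% and 21.1% of all genes). In Val+PA against Control, 1 was higher and 1 lower (20.4% and 18.8% of all genes). The receptor gene S1pr3 averaged 29.4 ± 2.5 CPM in Val+PA, 21.6 ± 1.2 CPM in Valine and 15.9 ± 2.7 CPM in Control, called higher in Val+PA (log2 fold change 0.88, edgeR adjusted p = 0.000333). S1pr1 averaged 7.60 ± 1.0 CPM in Val+PA, 10.4 ± 0.03 CPM in Valine and 6.26 ± 0.96 CPM in Control, called higher in Valine (log2 fold change 0.73, edgeR adjusted p = 0.00231) and not called in Val+PA (0.28, edgeR adjusted p = 0.176), each against Control. S1pr2 averaged 42.4 ± 3.0 CPM in Val+PA, 38.3 ± 3.2 CPM in Valine and 57.1 ± 1.6 CPM in Control, called lower in both (log2 fold changes -0.43 and -0.58).

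Of 10 genes supplying palmitoyl-CoA and serine, 2 were higher and 2 lower in Valine against Control (20.8% and 21.1% of all genes). In Val+PA against Control, 4 were higher and 2 lower (20.4% and 18.8% of all genes). Acsl1 and Acsl3 encode long-chain acyl-CoA synthetases. Acsl3 averaged 318 ± 71 CPM in Val+PA, 341 ± 19 CPM in Valine and 188 ± 32 CPM in Control, called higher in Valine (log2 fold change 0.86, edgeR adjusted p = 0.00136) and in Val+PA (0.76, edgeR adjusted p = 0.00324). Acsl1 averaged 37.4 ± 5.2 CPM in Val+PA, 32.8 ± 2.2 CPM in Valine and 21.9 ± 3.2 CPM in Control, called higher in Val+PA (log2 fold change 0.77, edgeR adjusted p = 0.000963) and in Valine (0.58, edgeR adjusted p = 0.00553). Shmt1, which interconverts serine and glycine, averaged 15.7 ± 1.5 CPM in Val+PA, 16.7 ± 1.5 CPM in Valine and 37.8 ± 2.7 CPM in Control, called lower in both (log2 fold changes -1.27 and -1.18).

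Between Val+PA and Valine none of the 59 genes was called, and the gene of smallest p in each list is given with its values. Besides Neu1, Kdsr, which reduces the product of serine palmitoyltransferase, averaged 81.8 ± 5.9 CPM in Val+PA and 71.3 ± 4.9 CPM in Valine (log2 fold change 0.20, edgeR adjusted p = 0.398). B4galnt1, which extends gangliosides, averaged 15.5 ± 5.0 CPM in Val+PA and 9.96 ± 0.84 CPM in Valine (0.63, edgeR adjusted p = 0.342), and Psph, the last enzyme of serine synthesis, 151 ± 10.6 CPM in Val+PA and 116 ± 9.8 CPM in Valine (0.38, edgeR adjusted p = 0.327). With the CPM given above, the log2 fold change of Val+PA against Valine was 0.36 for Ormdl3 (edgeR adjusted p = 0.323), -0.46 for Asah2 (0.333) and 0.44 for S1pr3 (0.303). These 7 genes had higher values in Val+PA, except Asah2.

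Sphk1 had the largest F of the 10 genes in the edgeR test of all 3 groups, at 10.94. Over 12396 tested genes with a mean of at least 2 CPM, the 5 whose log2 CPM followed Sphk1 most closely over the 9 libraries were Adgrl1 (Pearson r = 0.9896), Tyro3 (0.9857), Cd320 (0.9779), Mapk12 (0.9776) and Ppm1l (0.9766). These correlations describe 9 libraries that share group and library deviations.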

How the data were processed

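Strand-specific paired-end libraries were made from total RNA of C2C12 wells, per the labels' protocols. The submitters' processing notes name HISAT2, featureCounts, DESeq2 and the build GRCm38; their versions and settings, how strand was treated in the counting, and the annotation release were not given in the sources used here, where only names appear. The authors deposited whole-number counts of reads for each Ensembl gene, not normalized, and a table of normalized signal. In that deposited signal, tested on 10565 genes with at least 100 reads, 100% of genes equalled count times a gene factor and a library factor within 1%. Over the 10539 of these genes that GENCODE holds, the gene factor was proportional to the union of annotated exons within 1% for 98.4% of genes. The deposited columns for Val+PA are named P1 to P3, and were matched to VP1 to VP3 of the labels by group and number.

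Symbols and coordinates came from GENCODE M21 on GRCm38, which named 52147 of 53700 IDs (97.1%), and promoters from RefSeq on GRCm38.p6, which held 9 of the 10 genes, 7 of them with 1 start. Counts of all genes were tested with edgeR 4.0.16 (R 4.3.3; TMM, filterByExpr, group means, quasi-likelihood, 6 residual degrees of freedom), with p-values adjusted over all 18415 genes tested. The SE of a fold change is its size divided by the square root of F. The steps were tested on simulated counts. Alternatives were DESeq2 1.42.0, limma 3.58.1 (voom, library quality weights, and log2 of signal plus 1 or 0.1 for genes with mean signal of at least 0.5), other scalings, filters, thresholds and omitted libraries. Quality weights were added after seeing the data. Replicate counts differed by more than sampling noise, so no library was counted as a duplicate.

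The 10 genes, the 7 lists of other pathway genes and the alternative without Control 3 and Val+PA 2 were chosen with earlier results of these data known. From each list and comparison, the called gene that rose most and the one that fell most were named, or, with none called, the gene of smallest p; some of their values in other comparisons are given too. Near-identical copies and overlapping genes may share reads.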

Additional observations from a re-analysis of the deposited data

How the results depend on the processing

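The numbers called moved with the setting. Of the 10 genes, 4 were called in Valine against Control, against 1 at an adjusted p below 0.01, 2 with library size alone, 2 with log2 of signal plus 1, 1 with signal plus 0.1, 5 with DESeq2 or with the groups compared alone, 6 with quality weights, 6 without Control 3 and Val+PA 2, and 1 to 5 on leaving out 1 library. All genes called moved too, from 7718 to 5092 at 0.01, 7561 with library size alone and 8844 with the groups compared alone. They numbered 10172 without Control 3 and Val+PA 2, and 5796 to 9244 on leaving out 1 library. In Val+PA against Control 2 of the 10 were called, against 0 at 0.01, 1 with the groups compared alone, 5 without Control 3 and Val+PA 2, 4 with quality weights, 0 with either signal and 1 to 4 on leaving out 1 library. All genes called there went from 7219 to 4850 at 0.01 and 5634 with the groups compared alone. They numbered 9362 without Control 3 and Val+PA 2, and 6043 to 7863 on leaving out 1 library. In Val+PA against Valine, 0 genes, 0 of the 10 and 0 pathway genes were called, against 763, 2 and 4 with no filter, 604, 2 and 6 without Control 3 and Val+PA 2, 891, 2 and 10 with quality weights, and 212, 1 and 2 with DESeq2; leaving out 1 library gave 0.

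Signs turned only for log2 fold changes not called with all libraries. In Valine against Control these were Sptlc2 (0.0049) and Cers6 (0.051) with library size alone, Cers6 with signal plus 1 (0.016) and plus 0.1 (0.017), and on leaving out 1 library Cers4 (-0.19 to 0.32) and Cers6 (-0.053 to 0.0041). In Val+PA against Valine they were Asah1 with library size alone (-0.013), voom (-0.0022), signal plus 1 (-0.0087) and plus 0.1 (-0.0089), Sptlc2 with no filter (0.00020) and quality weights (0.019), and Cers5 (0.089) and Cers6 (0.011) with quality weights. Without Control 3 and Val+PA 2 they were Sptlc2 (0.028), Cers2 (0.032), Cers4 (-0.0034), Cers5 (0.056), Cers6 (0.0028) and Degs1 (0.028). On leaving out 1 library the values of this comparison ran from -0.046 to 0.027 for Sptlc1, -0.024 to 0.031 for Sptlc2, -0.23 to 0.035 for Cers2, -0.084 to 0.059 for Cers5, -0.17 to 0.0056 for Cers6, -0.33 to 0.030 for Degs1 and -0.10 to 0.18 for Asah1. The cause was not tested.

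Replicate numbers did not pair the wells: deviations of same-numbered wells correlated between -0.409 and 0.238. With the number as a replicate block, Degs1 in Valine against Control was no longer called (edgeR adjusted p = 0.0565). Degs1 was also not called there with at least 1 CPM in 3 libraries (0.0531), voom (0.054) or signal plus 1 (0.149) or 0.1 (0.175), and with signal it missed the threshold in Val+PA against Control (0.0514 and 0.067). Cers5 was not called with signal plus 1 or 0.1 in Valine (0.0627 and 0.0762) or Val+PA (0.0579 and 0.0711), each against Control, nor in Val+PA with quality weights (log2 fold change -0.17, 0.0839), and Sphk1 in Valine missed it with signal plus 0.1 (0.0501).

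Depth limits Cers4, Fa2h, Degs2 and Ugt8a, each near or below 1 CPM. Of 66 other pathway genes, 7 had too few reads to be tested, 3 of them none in any library.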
